A study of Mus musculus with 23 samples.

Results

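The transcriptomes compared here are those of branched organoids that KC cells formed in floating collagen gels, sampled at day 7, in the extension phase, and at day 13, in the lumen formation phase. The libraries were chosen by their labels, as the 3 libraries of collagen organoids of day 7 and the 5 of day 13 from the first batch, and they are 8 of the 23 libraries of the study. KC cells are primary pancreatic ductal adenocarcinoma cells of a mouse that carries Ptf1a Cre/+, in which Cre is expressed under the promoter of the pancreatic gene Ptf1a. Both groups have the same genotype and differ in the day alone. All 8 libraries are of cells from 1 mouse. The study describes the replicates of a day as individual experiments, so that the p-values measure the spread between experiments and not between animals. That spread was estimated within the 6 conditions of all 23 libraries, which include other cultures and cells of another genotype. Organoids were freed from the gel with collagenase before lysis. The question put to the comparison was which genes differ between the phase in which branches extend and the phase in which a lumen forms.

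In the extension phase, branches grow into the collagen by cell invasion and division, while in the lumen formation phase a cavity opens inside the branches and the cells arrange themselves with an apical side toward it. An epithelium that encloses a lumen depends on junctions that seal the space between cells, on polarity proteins that tell the apical from the basal side, and on the transport of ions and water. Ductal cells of the pancreas secrete bicarbonate and mucins, and in pancreatic tumors they often take up genes of stomach and intestine.

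The counts stand for captured RNA molecules (UMIs) at the 3' end of each gene, and levels are given as CPM, which relate the counts of a gene to the total of its library, after TMM scaling. Total counts ran from 2059462 to 2471058 at day 7 and from 1844157 to 2097989 at day 13. A count of 0 allows up to 3 counts, or between 1.16 and 1.58 CPM, and such limits cover counting error only. The share of counts on the mitochondrial genome was 3.72% ± 0.359 (SD, n = 3) at day 7 and 3.89% ± 0.744 (SD, n = 5) at day 13. Day 13 replicates 4 and 5 stood apart from the other day 13 libraries on the second principal component, at −6.16 and −7.89 against 4.55 to 5.29. They also had the highest mitochondrial shares of that day, 4.83% and 4.44%, so that results resting on them are given with and without them.

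The label was checked against marker genes. Of the 14 ductal epithelial markers 13 were tested, and their summed level was between 17096 and 19354 CPM at day 7 and between 20891 and 23348 CPM at day 13. The members were split, with 7 called higher at day 13, 2 called higher at day 7 and 4 not called. Spp1 alone went from a mean of 4675 CPM at day 7 to 8833 CPM at day 13. Counts per library at day 7 and day 13 were 6116 to 7393 and 3887 to 5218 for Krt8. For Krt18 they were 8569 to 9019 and 5819 to 7210. Of 16 leukocyte markers 10 were in the table, and Ptprc, which marks leukocytes, had at most 1 count in any of the 8 libraries. The only tested marker of this list, Cd68, which epithelial cells can also express, was at 4.61 ± 1.06 CPM (SD, n = 3) at day 7 and 16.3 ± 4.45 CPM (SD, n = 5) at day 13. None of 10 endothelial markers passed the filter on low counts. Kdr and Emcn had no count, while Plvap had 2 to 5 counts per library at day 7 and 1 to 8 at day 13. Fibroblast markers summed to between 60.1 and 102 CPM at day 7 and between 55.2 and 113 CPM at day 13. Thy1 had no count, while Col1a2 had 69 to 121 counts per library at day 7 and 54 to 125 at day 13. Col3a1 had 33 to 77 and 33 to 74 counts. None of the 4 tested genes of that list, which were these collagens, Dcn and Acta2, passed the test. Of 19 acinar and endocrine markers 6 were in the table and 1 was tested, and Ins1, Ctrb1 and Chgb had no count. The 1 tested, the elastase gene Cela1, which is named here after its values were seen, had 7 to 8 counts per library at day 7 and 14 to 24 at day 13 and was called higher at day 13. The acinar transcription factor Bhlha15 had 0 to 3 and 5 to 10 counts. The summed level of this list was between 2.98 and 4.41 CPM at day 7 and between 12.1 and 14.8 CPM at day 13. The part of these markers in the results was not tested.

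The days differed across more than a small set of genes. Of 11144 tested genes 6097 were called at an adjusted p under 0.1 in edgeR's quasi-likelihood test, which is 54.7% of them. Higher at day 7 were 3095 genes (27.8%), and higher at day 13 were 3002 (26.9%), with a median log2 fold change over all tested genes of 0.01. The log2 fold changes are of day 7 over day 13 throughout, so that negative values stand for genes higher at day 13. Changes of at least 2-fold were called for 1004 genes higher at day 7 and 1323 higher at day 13, and changes of at least 4-fold for 127 and 470. The libraries of the days did not overlap for 48.3% of the tested genes. In addition, 85 genes had at most 3 counts in every day 7 library and more in every day 13 library, against 14 genes the other way. Since the libraries are of bulk samples, fewer cells of a type and less RNA per cell cannot be told apart.

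**Figure D1:**
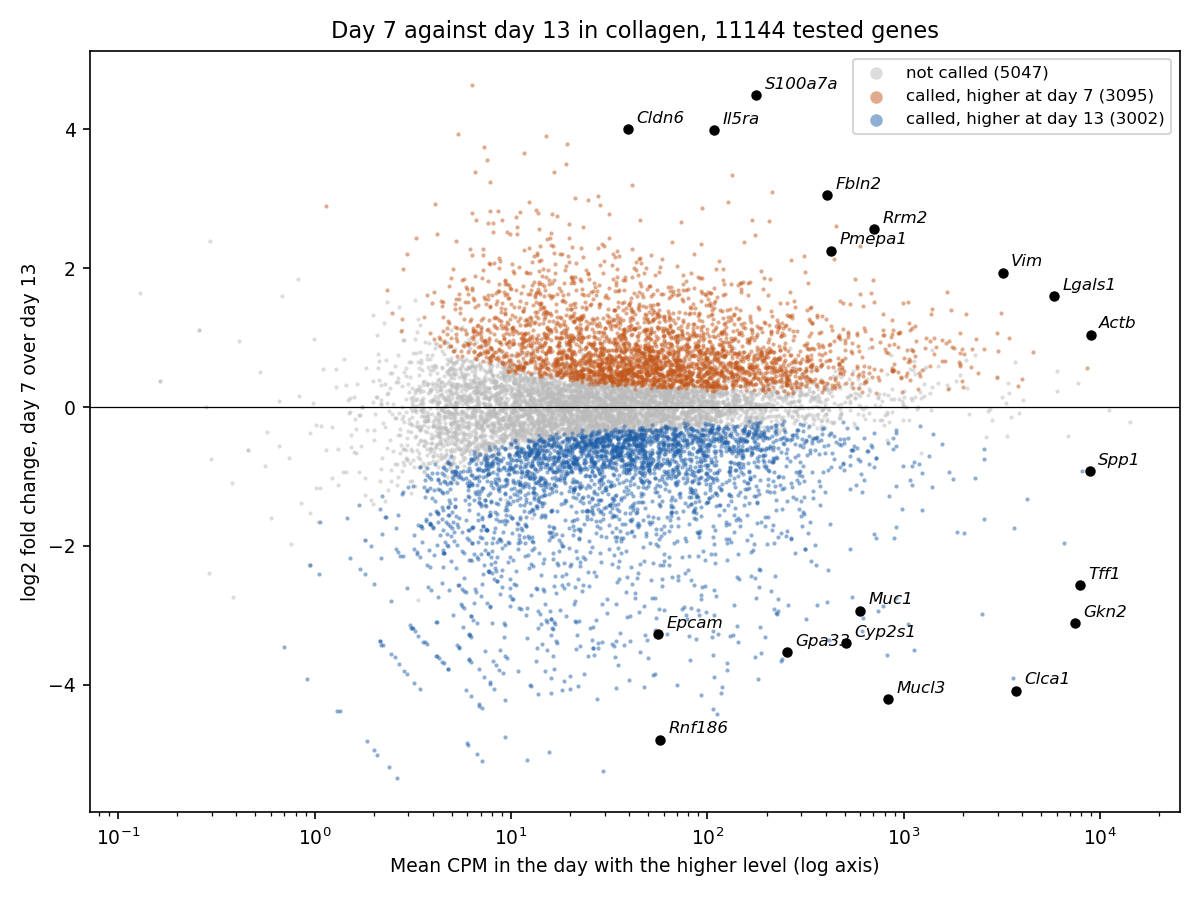
Log2 fold change of day 7 over day 13 for the 11144 tested genes against the mean CPM of the day with the higher level, on a log axis. The 3095 genes called higher at day 7 lie above 0 and the 3002 called higher at day 13 below it, and changes beyond 4-fold are more frequent below 0 (470 genes) than above (127 genes).

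Among genes of at least 30 CPM, S100a7a, a member of the psoriasin group of small calcium-binding proteins, had the largest fold change toward day 7. It was at 194, 153 and 186 CPM in the day 7 libraries and at 6.49, 4.32, 5.26, 13.4 and 9.46 CPM in those of day 13 (log2 fold change 4.49 with a standard error, SE, of 0.227, and edgeR adjusted p = 6.45e-15). Every day 7 library was far above every day 13 library. Il5ra, the ligand-binding chain of the interleukin 5 receptor, was at 97.1, 98.4 and 129 CPM at day 7 and at 3.71, 7.19, 5.74, 8.51 and 8.93 CPM at day 13 (log2 fold change 3.98 with an SE of 0.206). The third gene of this size, the claudin Cldn6, known from embryonic epithelia, was at 46.1, 32.9 and 38.8 CPM at day 7 and between 1.05 and 3.83 CPM at day 13 (log2 fold change 3.998). Pmepa1, a membrane protein induced by TGF-beta that limits this signaling, was at 393, 422 and 468 CPM at day 7 and at 84.4, 97.8, 85.7, 107 and 74.1 CPM at day 13 (log2 fold change 2.25 with an SE of 0.106, and edgeR adjusted p = 1.19e-15). For these 4 genes the days did not overlap, as for 48.3% of all tested genes. The genes with the largest changes were chosen among those without overlap, so that their separation is no separate result. S100a7a (chr3:90654017-90658669, plus strand), Il5ra (chr6:106710357-106749037, minus strand) and Pmepa1 (chr2:173224458-173276533, minus strand) are protein-coding genes placed by the GRCm38 annotation.

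The other genes with the largest changes toward day 7 were of several kinds. Fbln2, which encodes the matrix protein fibulin 2, reached 406 ± 119 CPM (SD, n = 3) at day 7 and 49.1 ± 11.4 CPM (SD, n = 5) at day 13. F2r, the thrombin receptor, was at 168 ± 21.4 CPM at day 7 and at 25.9 ± 6.29 CPM at day 13. Ildr2 had a log2 fold change of 3.19. Prl2c2 and Prl2c3, near-identical members of the proliferin family whose reads counting may have split between them, had log2 fold changes of 3.10 and 3.34. The histone genes H1f5 (2.87) and H2ac8 (2.70) belong here as well, H1f5 with 139, 107 and 36.7 CPM in the day 7 libraries and thus a wide spread. Snora73b, a small nucleolar RNA that overlaps its host gene Snhg3 and Rcc1, had a log2 fold change of 2.78.

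Toward day 13, the largest fold change among genes of at least 30 CPM was that of Rnf186, a ubiquitin ligase of the gut epithelium. It was at 1.96, 2.71 and 1.28 CPM at day 7, near the limit of detection, and at 61.2, 54.2, 56, 51.1 and 64.1 CPM at day 13 (log2 fold change −4.79 with an SE of 0.291, and edgeR adjusted p = 1.28e-13). Clca1, a secreted protein of mucus-producing cells that regulates chloride conductance, combined a large fold change with a high level. It was at 245, 253 and 162 CPM at day 7 and at 3587, 3394, 3823, 3730 and 4077 CPM at day 13 (log2 fold change −4.08 with an SE of 0.164, and edgeR adjusted p = 5.15e-17). For both genes the days were fully separated, which the choice of genes without overlap required. Gpa33, a surface antigen of intestinal epithelium, was at 19.1, 25.6 and 20.9 CPM at day 7 and at 241, 210, 235, 255 and 328 CPM at day 13 (log2 fold change −3.53 with an SE of 0.172). Cyp2s1, a cytochrome P450 of epithelia, was at 51, 52.7 and 40.9 CPM and at 524, 431, 455, 472 and 655 CPM (log2 fold change −3.39 with an SE of 0.151). For both, every day 13 library was above every day 7 library. On GRCm38, Clca1 lies at chr3:145003817-145032776 and Cyp2s1 at chr7:25802475-25816913, both on the minus strand, and Gpa33 at chr1:166130238-166166510 on the plus strand.

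Several of the other genes in this group belong to the apical surface. Cdhr5, a protocadherin that links microvilli, rose from 1.98 ± 0.717 to 34.1 ± 4.41 CPM, and Myo1a, the myosin of the brush border, from 2.53 ± 1.3 to 40 ± 3.17 CPM (SD, n = 3 and 5). Fut2, a fucosyltransferase that decorates mucosal surfaces with blood group structures, went from 7.09 ± 2.1 to 118 ± 16 CPM. Mucl3, a mucin-like protein, went from 45.1 ± 4.86 to 831 ± 375 CPM, with a day 13 range from 508 to 1414. The morphogen Ihh (log2 fold change −4.00), the choline transporter Slc44a4 (−4.02), the complement regulator C4bp (−4.12), the P450 genes Cyp4f14 (−4.15) and Cyp2c55 (−4.34), and the predicted gene Gm3336 (−4.42) completed the 12. Cyp2c55 is the least certain of them, as described below with the spread among the day 13 libraries.

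**Figure D2:**
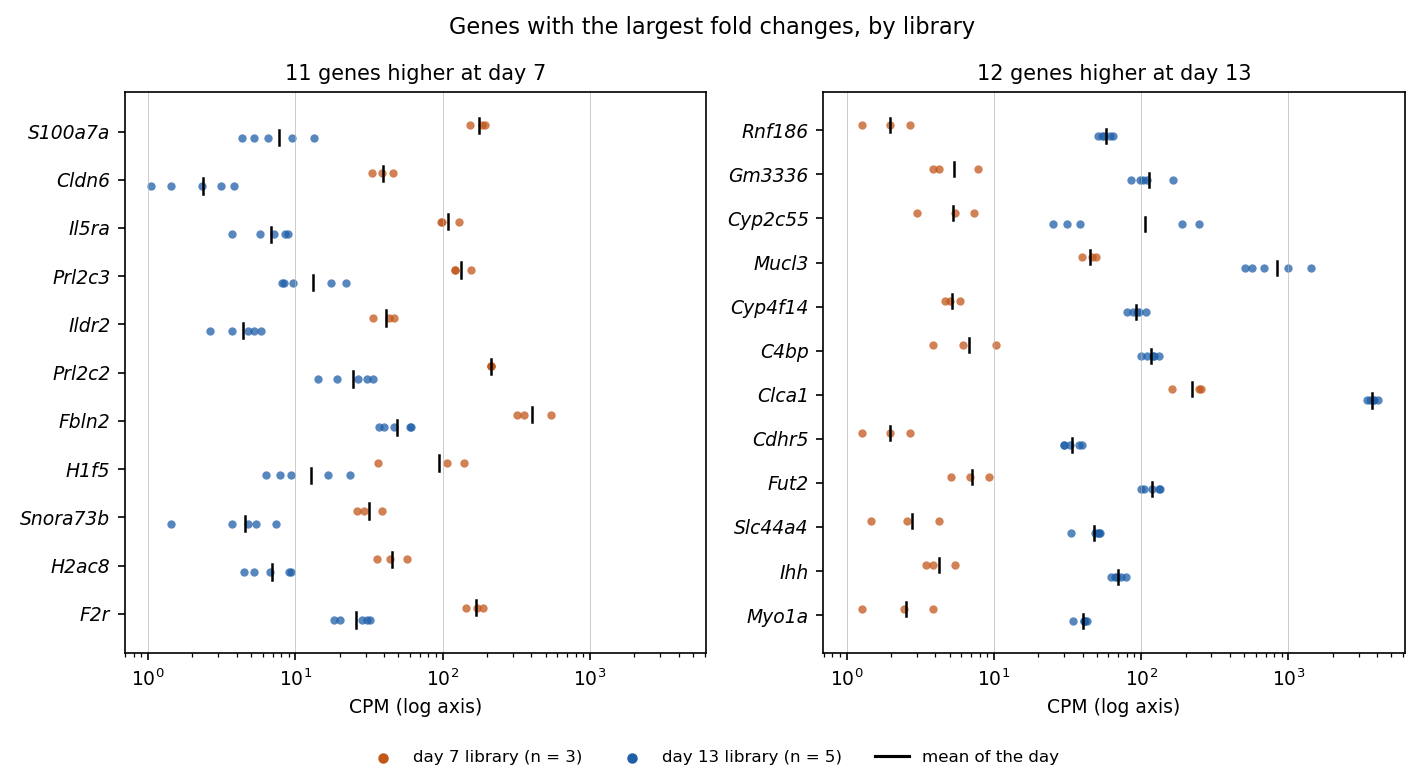
CPM on a log axis of 11 of the 12 genes with the largest and the 12 with the smallest log2 fold change among called genes of at least 30 CPM without overlap, with a point per library and a bar for the mean of each day. The choice of genes without overlap places all day 7 points to the right of the day 13 points in the left panel. In the right panel it places them to the left. Cyp2c55 shows day 13 libraries in separate groups at 25.4 to 38.5 and at 189 and 247 CPM.

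By the difference in CPM, 6 genes led toward day 7. Actb, cytoplasmic beta-actin, was at 8960 ± 1024 CPM at day 7 and 4357 ± 163 CPM at day 13, Lgals1, galectin 1, at 5827 ± 677 and 1925 ± 211 CPM, and Vim, the intermediate filament protein vimentin, at 3183 ± 283 and 832 ± 103 CPM. S100a6 (8574 ± 515 against 5814 ± 192 CPM), the ferritin heavy chain Fth1 (4526 ± 539 against 2608 ± 162 CPM) and the ribosomal protein gene Rps2 (3137 ± 248 against 1226 ± 213 CPM) followed. S100a6 is the exception among these 6 in that its level in the second batch of day 13 was 9563 ± 955 CPM, above day 7.

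By the same measure Clca1 and 5 other genes led toward day 13. Tff1, a trefoil peptide of gastric mucus, was at 1300, 1549 and 1140 CPM at day 7 and at 7162, 6253, 7009, 8304 and 10535 CPM at day 13 (log2 fold change −2.56, adjusted p = 6.48e-13 from edgeR). Gkn2, gastrokine 2 of gastric surface cells, was at 991, 1018 and 561 CPM and at 6080, 6443, 7345, 7947 and 9237 CPM (log2 fold change −3.11, adjusted p = 4.48e-08 from edgeR). Neither gene had overlapping values between the days. The lectin gene Lgals2 went from 1688 ± 221 to 6541 ± 485 CPM, the secreted phosphoprotein Spp1 from 4675 ± 940 to 8833 ± 756 CPM, and the chaperone Clu from 4305 ± 64.4 to 8120 ± 852 CPM.

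Genes of the cell cycle were nearly all higher at day 7. Of 48 genes of S phase and DNA replication, 46 were higher at day 7 and none at day 13, with a median log2 fold change of 1.22. Of 52 genes of G2/M and mitosis, 51 were higher at day 7 and 1 at day 13, with a median of 1.59. Over all tested genes the corresponding shares were 27.8% and 26.9%, and the median was 0.01. Rrm2, the ribonucleotide reductase subunit that provides deoxynucleotides, was at 739, 677 and 702 CPM at day 7 and at 153, 125, 135, 86 and 101 CPM at day 13 (log2 fold change 2.56 with an SE of 0.235). The thymidylate synthase Tyms (1.42), the licensing factor Cdc6 (1.41), the helicase subunit Mcm5 (1.55), the cyclin Ccne2 (2.19) and the sliding clamp Pcna (0.83) were higher at day 7 as well.

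In mitosis, Foxm1, a transcription factor of G2/M genes, was at 41.3 ± 7.76 CPM at day 7 and at 8.41 ± 4.17 CPM at day 13 (log2 fold change 2.28, adjusted p = 2.77e-08 from edgeR). Birc5, which encodes survivin, was at 316, 299 and 320 CPM against 85.3, 74.3, 63.2, 67.6 and 53.6 CPM. The mitotic kinase Cdk1 was at 215, 217 and 202 CPM against 95.5, 93.5, 79.9, 67.2 and 67.8 CPM, and its partner Ccnb1 at 152 ± 8.92 against 43.7 ± 9.54 CPM. The day 7 and day 13 libraries were thus separated for each of these 4 genes, while transcripts of division remained detected at day 13. The proliferation marker Mki67 is an exception to the separation. It was at 34.8, 126 and 120 CPM at day 7, and its lowest day 7 value lies within the day 13 range of 22.4 to 41.2 CPM. Its call (log2 fold change 1.64, adjusted p = 0.000216 from edgeR) was lost when the second batch stood for day 13 (0.50, adjusted p = 0.235).

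The promoters of these genes were searched for short sequence motifs, with 250 bases before and 50 after the start site of each gene taken from RefSeq on GRCm38.p6. The searched letters, on either strand, were TTTGAA for the cell cycle homology region (CHR) of G2/M promoters, CCAAT for the CCAAT box, TTTGGCGC or TTTCCCGC for E2F, CACGTG for the E-box of Myc and related factors, and the core of the interferon-stimulated response element (ISRE), which is a pair of GAAA runs with a gap of 2 bases. A CHR and an ISRE match can share letters. Of the 51 G2/M genes higher at day 7, 41 had a promoter in the table, and 31 of these (75.6%) held a CHR and 32 (78%) a CCAAT box. Over all promoters 20.2% held a CHR and 41.1% a CCAAT box, and among those of tested genes 14% and 43.2%. Of 37 promoters of S phase genes higher at day 7, 13 (35.1%) held an E2F motif, against 1.8% of all promoters and 3.61% of those of tested genes. Over all genes called higher at day 7 the shares were 16.7% for the CHR, 44.1% for the CCAAT box and 5.7% for E2F. The lists were chosen by role, so that their motif shares describe those roles and not the difference between the days. A match is a description of the letters and does not show that a factor is bound.

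The promoters of Plk1, Cdk1 and Top2a, which encode a mitotic kinase, the kinase of cyclin B and the topoisomerase that separates chromosomes, are shown because they hold both motifs of the G2/M group, and those of Mcm5 and Cdc6 because they hold the E2F motif of the S phase group. Capitals mark CHR and CCAAT box matches in the first 3 and E2F matches in the other two, and each sequence runs 5' to 3' on the strand of its gene. Plk1 is on the plus strand at chr7:122159185-122159484, Cdk1 on the minus strand at chr10:69352863-69353162, Top2a on the minus strand at chr11:99024140-99024439, Mcm5 on the plus strand at chr8:75109259-75109558 and Cdc6 on the plus strand at chr11:98907901-98908200.
Plk1: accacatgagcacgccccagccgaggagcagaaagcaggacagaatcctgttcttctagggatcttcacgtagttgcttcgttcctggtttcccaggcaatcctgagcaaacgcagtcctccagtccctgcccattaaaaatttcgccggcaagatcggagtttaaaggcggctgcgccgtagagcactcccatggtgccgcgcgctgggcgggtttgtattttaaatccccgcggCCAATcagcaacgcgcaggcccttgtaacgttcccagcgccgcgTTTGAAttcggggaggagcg
Cdk1: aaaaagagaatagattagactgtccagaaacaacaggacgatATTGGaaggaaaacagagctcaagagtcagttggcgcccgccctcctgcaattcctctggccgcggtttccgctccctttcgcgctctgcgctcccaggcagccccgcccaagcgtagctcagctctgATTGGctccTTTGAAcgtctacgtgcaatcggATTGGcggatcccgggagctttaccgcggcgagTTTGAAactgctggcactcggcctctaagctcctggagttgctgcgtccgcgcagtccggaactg
Top2a: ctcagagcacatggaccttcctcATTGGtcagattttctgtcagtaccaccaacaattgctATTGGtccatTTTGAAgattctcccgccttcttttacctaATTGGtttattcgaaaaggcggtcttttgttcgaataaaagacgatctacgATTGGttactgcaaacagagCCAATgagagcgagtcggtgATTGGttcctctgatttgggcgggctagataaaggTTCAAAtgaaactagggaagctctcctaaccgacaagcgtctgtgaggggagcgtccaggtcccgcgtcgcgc
Mcm5: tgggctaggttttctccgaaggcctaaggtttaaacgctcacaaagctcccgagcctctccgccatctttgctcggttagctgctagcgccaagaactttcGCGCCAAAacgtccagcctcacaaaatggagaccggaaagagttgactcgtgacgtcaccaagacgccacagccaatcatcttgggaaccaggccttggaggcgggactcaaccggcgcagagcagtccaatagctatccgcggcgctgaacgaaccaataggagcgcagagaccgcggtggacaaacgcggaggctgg
Cdc6: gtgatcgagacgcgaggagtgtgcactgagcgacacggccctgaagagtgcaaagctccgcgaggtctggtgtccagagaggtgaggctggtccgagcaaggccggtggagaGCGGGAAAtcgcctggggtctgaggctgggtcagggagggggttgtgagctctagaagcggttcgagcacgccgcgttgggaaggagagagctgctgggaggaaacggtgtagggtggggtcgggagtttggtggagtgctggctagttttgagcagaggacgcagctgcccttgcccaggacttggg
The Plk1 CHR starts 31 bases downstream of the start site, and Cdk1 holds CHR matches 71 and 15 bases upstream of it. The 5 genes were higher at day 7 by log2 fold changes of 1.64 (Plk1), 1.39 (Cdk1), 1.61 (Top2a), 1.55 (Mcm5) and 1.41 (Cdc6).

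Genes of ribosome production followed the cell cycle genes in direction. Of 48 genes of ribosome biogenesis and of targets of the growth regulator Myc, 41 were higher at day 7 and 1 at day 13 (median 1.04). The nucleolar proteins Npm1 (960 ± 31.9 against 455 ± 38.7 CPM) and Ncl (683 ± 88.8 against 347 ± 46.1 CPM), the small nucleolar ribonucleoprotein Nhp2 (log2 fold change 1.84), the polyamine enzyme Odc1 (1.75) and the pyrimidine synthesis enzyme Cad (2.08) were among the 41. The 1 gene higher at day 13 was Myc itself, at 121, 120 and 116 CPM against 182, 176, 133, 120 and 142 CPM. Its log2 fold change of −0.34 (adjusted p = 0.0584 from edgeR) was small and lost its call without day 13 replicate 1 (−0.27) or 2 (−0.28) or without any of the day 7 replicates (−0.35, −0.35 and −0.32). It turned to 0.72 when the second batch stood for day 13, where the call of Ncl was lost (0.05). The E-box was held by 9 of 35 promoters (25.7%) of the genes higher at day 7 in this list, against 8.09% of all promoters and 12.2% of those of tested genes. Over all genes called higher at day 7 its share was 12.5%.

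Of 38 cytosolic ribosomal protein genes, 21 were higher at day 7 and none at day 13 (median 0.69). A wider set, all genes with the name of a cytosolic ribosomal protein, was used for the share of all counts. That share was 11.7% ± 0.508 (SD, n = 3) at day 7 and 8.71% ± 0.981 (SD, n = 5) at day 13. An exact permutation test gave p = 0.0357, two-sided, for this difference, which is the smallest p that 3 against 5 libraries allow, and an adjusted p of 0.179 over the 5 library measures compared. Rplp0 was at 2557 ± 271 against 1435 ± 204 CPM and Rpsa at 1140 ± 94.5 against 509 ± 59.6 CPM. Genes of this family have many pseudogenes, between which counting could split reads.

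The cytoskeleton list leaned toward day 7. Of 47 genes of the actin and myosin cytoskeleton, 30 were higher at day 7 and 4 at day 13 (median 0.50). Beside Actb, the tubulins Tuba1a (601 ± 70.2 against 121 ± 26.9 CPM) and Tubb6 (265 ± 15.8 against 61.3 ± 10.6 CPM), the tropomyosin Tpm1 (1037 ± 73.9 against 586 ± 51.3 CPM) and the non-muscle myosin Myh9 (log2 fold change 0.85) were higher. Another non-muscle myosin, Myh14, went the other way, from 9.32, 12 and 8.1 CPM at day 7 to 61.7, 60.9, 57.4, 86.9 and 106 CPM at day 13 (log2 fold change −2.91, adjusted p = 4.54e-12 from edgeR). The myosins of this list therefore did not change as a group, and with the second batch as day 13 the calls of Myh9 (0.15) and Tpm1 (0.13) were lost. Without day 7 replicate 3 the log2 fold change of Myh9 was 0.55.

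Adhesion genes showed a similar lean, with 23 of 37 integrin and focal adhesion genes higher at day 7 and 4 higher at day 13 (median 0.45). Flna, the actin crosslinker filamin A, was at 371, 425 and 615 CPM at day 7 and at 161, 162, 175, 162 and 155 CPM at day 13 (log2 fold change 1.53, adjusted p = 2.4e-10 from edgeR). Actn1, alpha-actinin (1.42), and Parvb, a parvin of integrin complexes (1.97), were higher at day 7 too, and so was Itga2, a subunit of the collagen receptor (1.18). Itgb1, the beta subunit shared by most collagen and laminin receptors, differed by 0.45. For Itga2 and Itgb1 the direction turned with the second batch as day 13 (−0.18 and −0.27). Fermt1, kindlin 1 of epithelia (−1.65), and Itgb6, an integrin of epithelial remodeling (−1.86), were higher at day 13.

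Mesenchymal genes were higher at day 7. Of 27 factors and markers of epithelial-mesenchymal transition, 21 were higher at day 7 and none at day 13 (median 1.12). Hmga2, a chromatin protein of embryonic and mesenchymal cells, was at 382, 442 and 524 CPM at day 7 and at 66.8, 73.4, 74.7, 94.5 and 59.4 CPM at day 13 (log2 fold change 2.61 with an SE of 0.144, and edgeR adjusted p = 1.85e-14). Cdh2, N-cadherin, was at 21.1, 29.8 and 36.7 CPM and at 4.64, 7.19, 6.22, 6.27 and 4.2 CPM (log2 fold change 2.34). The transcription factor Zeb1 was at 15.7 ± 4.7 against 7.26 ± 2.19 CPM, and the receptor kinase Axl at 208 ± 22 against 57.7 ± 7.8 CPM. Snai2 was at 9.61 ± 2.43 against 6.95 ± 1.68 CPM and did not pass the test (adjusted p = 0.253 from edgeR). With the second batch as day 13, the call of Zeb1 was lost (0.29, adjusted p = 0.424) while Snai2 passed (2.06, adjusted p = 0.000891 from edgeR). The list holds Vim, Lgals1 and Pmepa1, already described.

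Signaling lists did not move alike. Of 31 genes of TGF-beta and BMP signaling, 9 were higher at day 7 and 8 at day 13, near the shares of 27.8% and 26.9% over all tested genes. The median was −0.05, or 0 with a gene near the limit of detection set to its bound. The list as a whole did not share the direction of Pmepa1. The median was 0.15 without day 13 replicates 4 and 5, and 5 genes were higher at day 7 with the second batch as day 13. The latent TGF-beta binding protein Ltbp1 (1.10) and the receptor Acvr1 (0.91) were higher at day 7, and the inhibitory Smad6 (−0.58, and −0.29 with no call against the second batch) at day 13. Of 21 genes of YAP/TEAD signaling, 14 were higher at day 7 and 2 at day 13 (median 0.60), among them Ankrd1, a direct target, at 90.7, 110 and 110 CPM against 32.5, 45.6, 34.5, 45.2 and 25.7 CPM. Of 23 genes of the EGF family, the hepatocyte growth factor receptor and their feedback, 11 were higher at day 7 and 6 at day 13 (median 0.32, or −0.02 with the second batch as day 13). With the second batch 5 were higher at day 7, and without day 7 replicate 3 the median was 0.10.

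The EGF list held members in both directions. The ligands Areg (271 ± 64.8 against 109 ± 15.8 CPM), Ereg (33.8 ± 13.2 against 17.1 ± 3.87 CPM) and Nrg1 (16.6 ± 4.77 against 3.49 ± 1.32 CPM) were higher at day 7. With the second batch as day 13, the calls of Areg (0.17) and Ereg (0.20) were lost, and without day 7 replicate 3 the log2 fold change of Ereg was 0.62 (0.99 with it). The receptors Erbb3 (8.38 ± 1.93 against 44.5 ± 16 CPM) and Egfr (5.01 ± 0.378 against 11.1 ± 2.15 CPM), and the feedback inhibitor Spry4 (log2 fold change −1.40), were higher at day 13. Dusp6, another feedback inhibitor, was at 200 ± 34.2 against 141 ± 12.6 CPM and thus higher at day 7 (log2 fold change 0.51, adjusted p = 0.000906 from edgeR). Of 20 immediate early genes, 12 were higher at day 13 and 3 at day 7 (median −0.68), with Egr1 at 85.8, 131 and 113 CPM against 296, 305, 306, 229 and 220 CPM, Klf4 at 235 ± 53.5 against 534 ± 101 CPM and Btg2, which restrains division, at 128 ± 10.5 against 529 ± 35.4 CPM. Fosl1, the AP-1 subunit Fra-1, was an exception at 149 ± 30.6 against 47.3 ± 4.38 CPM. Tissue dissociation is known to induce several of these genes, and the part of the collagenase step was not tested.

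The matrix lists held members in both directions. Of 16 basement membrane genes, 7 were higher at day 7 and 5 at day 13 (median 0.32, or −0.03 with the second batch as day 13). The median was 0.52 without day 7 replicate 1 and 0.10 without day 7 replicate 3. Nid1, nidogen (79.3 ± 8.6 against 34.6 ± 10.1 CPM), Lamb1, a laminin chain (50.4 ± 16.6 against 21.6 ± 4.48 CPM), and Col4a1, a collagen IV chain (129 ± 52.4 against 70.4 ± 5.49 CPM), were higher at day 7. Without day 7 replicate 3 the count of basement membrane genes higher at day 7 was 4 and the log2 fold change of Col4a1 was 0.52 (0.88 with it). Of 29 genes of the interstitial matrix, 6 were higher at day 7 and 3 at day 13, Fbln2 and Lgals1 with the largest changes. Of 27 matrix proteases and inhibitors, 9 were higher on each day. Over all tested genes the shares were 27.8% higher at day 7 and 26.9% at day 13. The protease counts were near these shares, and the interstitial matrix counts did not exceed them. Timp1 (165 ± 16.7 against 66.4 ± 15.1 CPM), an inhibitor of matrix metalloproteinases, the plasminogen activator Plat (132 ± 21.5 against 38.6 ± 3.78 CPM) and the protease Ctsl (629 ± 39.8 against 286 ± 38.7 CPM) were higher at day 7. Spint1, an inhibitor of epithelial serine proteases (2.38 ± 1.43 against 27.6 ± 5.09 CPM), and the membrane-bound Mmp15 (14.2 ± 0.134 against 63.4 ± 17.4 CPM) were higher at day 13.

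Genes of tight junctions and polarity moved toward day 13. Of 36 tested, 26 were higher at day 13 and 4 at day 7 (median −1.38, or −1.26 with genes near the limit of detection set to their bound). Epcam, an adhesion molecule of epithelia, was at 7.85, 4.65 and 5.12 CPM at day 7 and at 45.9, 48.9, 45.5, 65.4 and 75.1 CPM at day 13 (log2 fold change −3.27 with an SE of 0.264, and edgeR adjusted p = 4.79e-11). Ocln, occludin of the tight junction, was at 24.5, 18.6 and 19.6 CPM and at 68.2, 75.3, 78, 73.9 and 89.8 CPM (log2 fold change −1.88 with an SE of 0.148). Elf3, an epithelial transcription factor, was at 72.3 ± 1.92 against 335 ± 71.7 CPM. For each of the 3 genes every day 13 library was above every day 7 library. The claudin Cldn7 stayed low, at 1.39 ± 0.832 and 7.72 ± 3.42 CPM, and Cldn3 had at most 3 counts in every day 7 library, so that it was at least 3.01-fold higher at day 13. Claudins also moved the other way, with Cldn6 as described and Cldn2, which forms cation pores, at 132 ± 5.15 against 75 ± 24.4 CPM (log2 fold change 0.81, or 0.52 without day 13 replicates 4 and 5 and 1.41 without replicates 1 to 3).

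Of 45 genes of ion and water transport, 26 were higher at day 13 and 11 at day 7 (median −0.65, or −0.63 with such genes at their bound). Car2, the cytosolic carbonic anhydrase that supplies bicarbonate, was at 74.5, 75.5 and 46.9 CPM at day 7 and at 501, 617, 600, 638 and 700 CPM at day 13 (log2 fold change −3.22 with an SE of 0.169, and edgeR adjusted p = 6.82e-15). The anion exchanger Slc26a6 was at 1.58 ± 0.119 against 23.7 ± 5.64 CPM, and Atp1b1, the beta subunit of the sodium pump, at 65.1 ± 8.89 against 279 ± 29.8 CPM. Clca1 is also in this list. The chloride channel Cftr was at 5.01 ± 2.73 and 8.26 ± 1.32 CPM, a difference that did not pass the test (adjusted p = 0.116 from edgeR) and passed without day 7 replicate 3 (log2 fold change −1.01) and with the second batch as day 13 (−1.68). It also passed in a fit of the 8 libraries alone (−0.72), with another scaling (−0.69) and without a filter on low counts (−0.72). The calcium-activated chloride channel Ano1 (168 ± 32.5 against 78.4 ± 14.1 CPM) and the potassium channel Kcnn4 (378 ± 41.5 against 289 ± 54.2 CPM) were higher at day 7. The call of Kcnn4 was lost without day 13 replicate 4 (0.29), without both day 13 replicates 4 and 5 (0.22, adjusted p = 0.253 from edgeR, against 0.39 with them) or without day 7 replicate 3 (0.29). Transport genes thus did not shift in 1 direction. Of 37 genes of the proton pump and lysosome, 15 were higher at day 13 and 2 at day 7 (median −0.21), with the glycosidases Glb1 (−1.37) and Hexa (−1.30) among the largest changes.

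The gene list with the lowest median was that of gastrointestinal differentiation. Of 42 genes, 32 were higher at day 13 and 4 at day 7 (median −2.38, or −2.10 with genes near the limit of detection set to their bound). S100a7a, Il5ra, Gpa33 and Cyp2s1 were placed in this list with earlier results known and are counted in it. Of the 38 genes without these 4, 30 were higher at day 13 and 2 at day 7, with the median again at −2.38. The lowest rank of this list did not hold throughout. The list of mucins and secreted defense products was lower with genes near the limit of detection at their bound (−2.16 against −2.10). It was also lower with the second batch as day 13 (−2.63 against −1.80). Tff2, a trefoil peptide of gastric glands, was at 309, 408 and 237 CPM at day 7 and at 3207, 2167, 2536, 2050 and 2561 CPM at day 13 (log2 fold change −2.98, adjusted p = 2.04e-06 from edgeR). Vil1, the actin bundler of microvilli (19 ± 1.35 against 137 ± 13 CPM), Agr2, an endoplasmic reticulum protein of mucin-secreting cells (13.7 ± 4.73 against 134 ± 37.7 CPM), Lgals4, a galectin of the gut (1088 ± 74.5 against 3620 ± 186 CPM), and Foxa3, a transcription factor of goblet cells and liver (2.36 ± 1.03 against 25.7 ± 9.89 CPM), were higher at day 13. The lineage factor Hnf4a was at 92.7 ± 14 against 115 ± 15 CPM, which did not pass the test (adjusted p = 0.214 from edgeR) and turned to 0.21 with the second batch as day 13. It passed in a fit of the 8 libraries alone (log2 fold change −0.35, adjusted p = 0.0212 from edgeR). Without a filter on low counts it passed as well (−0.35, adjusted p = 0.0723 from edgeR).

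Mucins and secreted defense products followed, with 21 of 27 genes higher at day 13 and 2 at day 7 (median −2.28, or −2.16 with such genes at their bound). Muc1, the transmembrane mucin of ductal epithelia, was at 79.9, 90.7 and 65.2 CPM at day 7 and at 699, 597, 600, 464 and 636 CPM at day 13 (log2 fold change −2.93 with an SE of 0.163, and edgeR adjusted p = 1.88e-14). Dmbt1, a scavenger receptor of mucosal fluids, was at 58 ± 15.8 against 407 ± 52.6 CPM, and Pigr, which carries antibodies to the lumen, at 2.19 ± 0.657 against 21.6 ± 3.48 CPM. Galnt6, which starts the sugar chains of mucins, had at most 3 counts in every day 7 library and was at least 9.22-fold higher at day 13. Of the 9 keratins tested, 5 were higher at day 7 and 2 at day 13, and Krt20, a keratin of differentiated gut epithelium, was at 240 ± 13 against 887 ± 117 CPM.

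Genes of drug and xenobiotic metabolism were higher at day 13 in 27 of 34 cases and at day 7 in 4 (median −1.99). Cyp3a13 was at 82.9, 82.5 and 61 CPM at day 7 and at 584, 544, 538, 608 and 811 CPM at day 13 (log2 fold change −3.03 with an SE of 0.158, and edgeR adjusted p = 6.45e-15). Cyp2c65 (136 ± 10.8 against 912 ± 234 CPM), the glucuronosyltransferase Ugt2b34 (50 ± 7.47 against 360 ± 58.8 CPM) and the retinaldehyde dehydrogenase Aldh1a1 (4.02 ± 0.901 against 29 ± 7.24 CPM) were higher as well. P450, carboxylesterase and glutathione transferase genes occur in families of similar copies, so that reads may be split between members. Of 38 genes of glutathione metabolism and the NRF2 response, 16 were higher at day 13 and 12 at day 7 (median −0.21, or 0.06 with the second batch as day 13). Over all tested genes the shares were 26.9% and 27.8%. The transferases Gstt1 (3.94 ± 1.42 against 45.3 ± 6.15 CPM) and Gsta4 (1680 ± 105 against 4215 ± 400 CPM) were higher at day 13, while the NRF2 targets Hmox1 (17.9 ± 0.802 against 8.84 ± 2.52 CPM) and Gclm (167 ± 6.83 against 111 ± 6.9 CPM) were higher at day 7, Hmox1 with no call against the second batch (0.34).

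**Figure D3:**
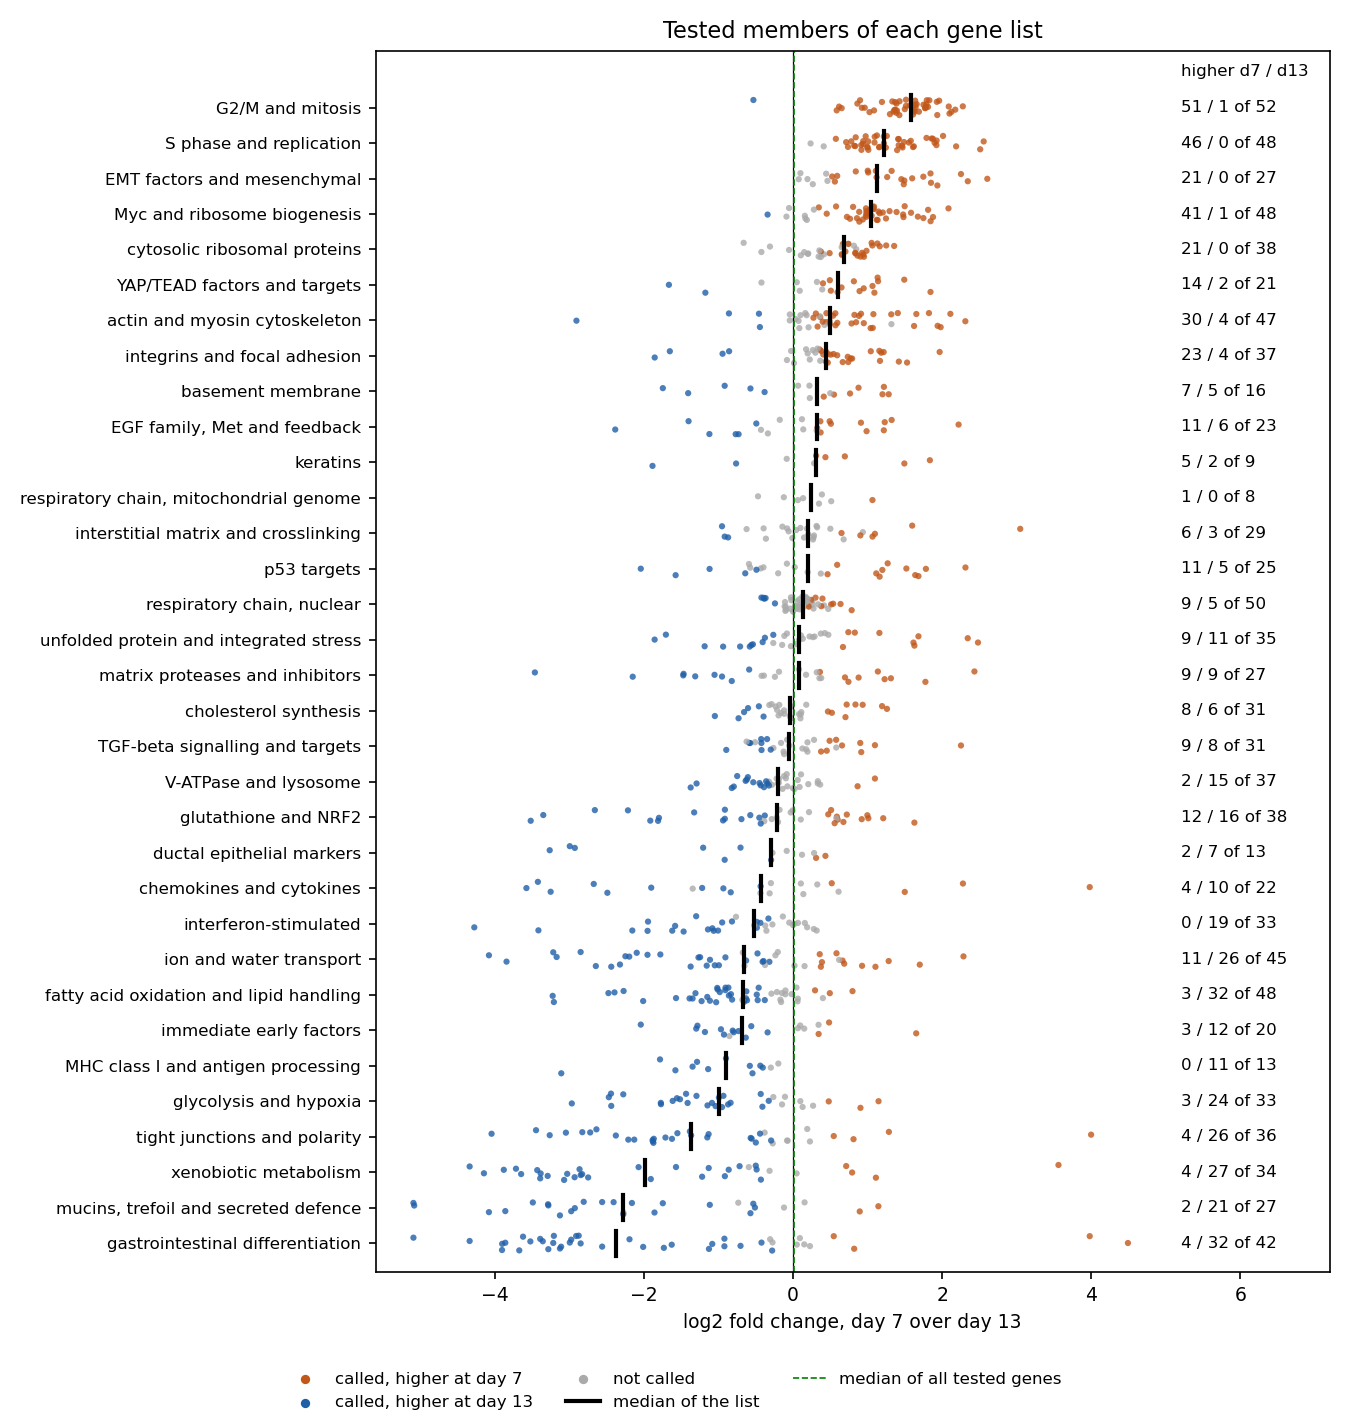
Log2 fold changes of day 7 over day 13 for the tested members of 33 gene lists, sorted by the median of each list, which is drawn as a black bar, with the numbers of members called higher at day 7 and at day 13 at the right. The cell cycle lists lie at the top with medians of 1.59 and 1.22, and gastrointestinal differentiation lies at the bottom with −2.38, while the median of all tested genes is 0.01.

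Metabolic genes differed by pathway. Of 33 genes of glycolysis and the hypoxia response, 24 were higher at day 13 and 3 at day 7 (median −0.996). Aldoc, an aldolase, was at 28.4 ± 5.75 against 223 ± 36.3 CPM, the mitophagy receptor Bnip3 at 73.9 ± 15.4 against 359 ± 48.7 CPM and the lactate exporter Slc16a3 at 26 ± 7.02 against 142 ± 33.5 CPM. Vegfa, the angiogenic factor induced by low oxygen, was at 44.6, 46.9 and 48.6 CPM at day 7 and at 106, 106, 97.6, 103 and 106 CPM at day 13 (log2 fold change −1.15, adjusted p = 6.04e-08 from edgeR). The glycolytic enzyme Ldha was at 3158 ± 405 against 3500 ± 230 CPM and did not pass the test (adjusted p = 0.326 from edgeR). It passed narrowly in a fit of the 8 libraries alone (log2 fold change −0.19, adjusted p = 0.0955 from edgeR). With the second batch as day 13 it also passed (−0.27, adjusted p = 0.0907 from edgeR). Car9, a carbonic anhydrase induced by hypoxia, was at 17.2, 13.2 and 6.39 CPM at day 7 and at 58, 58, 59.8, 58.2 and 97.2 CPM at day 13.

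Of 48 genes of fatty acid oxidation and lipid handling, 32 were higher at day 13 and 3 at day 7 (median −0.67). Cat, catalase of peroxisomes (81.4 ± 6.62 against 165 ± 13.7 CPM), Acadm, a mitochondrial acyl-CoA dehydrogenase (65.9 ± 1.15 against 131 ± 6.79 CPM), and Fabp1, the fatty acid binding protein of liver and gut (5.82 ± 1.38 against 53.8 ± 4.49 CPM), were among the 32. Plin2, which coats lipid droplets, was higher at day 7 (216 ± 18.1 against 124 ± 8.85 CPM). Of 31 genes of cholesterol and fatty acid synthesis, 8 were higher at day 7 and 6 at day 13 (median −0.04, or 0.21 with the second batch as day 13), with Fasn, fatty acid synthase (118 ± 19.4 against 61.9 ± 5.4 CPM), higher at day 7 and the desaturase Scd1 higher at day 13 (47 ± 6.82 against 97.7 ± 12 CPM). Of 50 nuclear genes of the respiratory chain, 9 were higher at day 7 and 5 at day 13 (median 0.13, or 0.07 without day 7 replicate 1). Neither this list nor that of cholesterol and fatty acid synthesis exceeded the shares of 27.8% and 26.9% over all tested genes. The number of these respiratory chain genes higher at day 7 was 26 with the second batch as day 13 and 18 with both batches. Of 8 genes on the mitochondrial genome 1 was called, and 2 were without day 7 replicate 2 or day 13 replicate 4.

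Of 35 genes of the unfolded protein and integrated stress responses, 9 were higher at day 7 and 11 at day 13 (median 0.08, or −0.04 without day 13 replicates 4 and 5), near the shares of 27.8% and 26.9% over all tested genes. Among the 9 was Phgdh, which starts serine synthesis and was at 180, 151 and 191 CPM at day 7 and at 38, 35, 31.6, 28.2 and 22.6 CPM at day 13 (log2 fold change 2.48 with an SE of 0.16, and edgeR adjusted p = 5.12e-13). Psat1, the next enzyme of the pathway (204 ± 8.46 against 66.6 ± 11 CPM), and the amino acid transporter Slc7a5 (92.9 ± 19.3 against 18.3 ± 2.14 CPM) were higher at day 7 too. Among the 11 were the transcription factor Xbp1 (203 ± 23.4 against 389 ± 41.8 CPM), the degradation factor Herpud1 (106 ± 7.65 against 241 ± 25.8 CPM) and the chaperone Hspa5 (470 ± 18.3 against 684 ± 103 CPM). Of 25 p53 targets, 11 were higher at day 7 and 5 at day 13. The median of 0.20 was 0.11 without day 7 replicate 2, 0.32 without day 13 replicate 4, −0.04 without day 13 replicates 1 to 3 and 0.50 with the second batch as day 13. The list had the apoptosis gene Bax (492 ± 15 against 227 ± 20.2 CPM) and Ccng1 (277 ± 29.7 against 96.5 ± 10.3 CPM) higher at day 7 and the cell cycle inhibitor Cdkn1a higher at day 13 (261 ± 9.17 against 367 ± 69 CPM, with a log2 fold change of −0.49, or −0.32 without day 13 replicates 4 and 5).

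Genes of interferon response and antigen presentation were called in 1 direction. Of 33 interferon-stimulated genes, 19 were higher at day 13 and none at day 7 (median −0.52). Samd9l (16.7 ± 6.86 against 74.2 ± 13.8 CPM), Ifi27 (20.9 ± 1.42 against 64.4 ± 8.94 CPM) and the transcription factor Irf7 (12.3 ± 4.35 against 34.5 ± 7.86 CPM) were among the 19. Of 13 genes of MHC class I and antigen processing, 11 were higher at day 13 and none at day 7 (median −0.90), and 7 were higher at day 13 when the second batch stood for that day. B2m, the light chain of MHC class I, was at 291, 284 and 220 CPM at day 7 and at 491, 513, 498, 507 and 466 CPM at day 13 (log2 fold change −0.90 with an SE of 0.119, and edgeR adjusted p = 3.37e-07). Tapbp, which loads peptides onto these molecules, was at 68.2 ± 3.38 against 204 ± 23 CPM. The heavy chain genes H2-K1 (100 ± 5.98 against 255 ± 45.1 CPM), H2-D1 (416 ± 18.3 against 916 ± 38 CPM) and H2-T23 (26.6 ± 3.83 against 91.8 ± 10.5 CPM) resemble each other, so that reads may be split between them, and H2-T23 had no call against the second batch (−0.26).

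The ISRE was held by 5 of 15 promoters (33.3%) of the interferon-stimulated genes higher at day 13 and by 3 of 9 (33.3%) of those of the MHC list, against 3.99% of all promoters and 3.52% of those of tested genes. Over all genes called higher at day 13 its share was 4.35%. The B2m promoter, on the plus strand at chr2:122147437-122147736, is shown as a case, with its ISRE match in capitals, which starts 139 bases upstream of the start site.
B2m: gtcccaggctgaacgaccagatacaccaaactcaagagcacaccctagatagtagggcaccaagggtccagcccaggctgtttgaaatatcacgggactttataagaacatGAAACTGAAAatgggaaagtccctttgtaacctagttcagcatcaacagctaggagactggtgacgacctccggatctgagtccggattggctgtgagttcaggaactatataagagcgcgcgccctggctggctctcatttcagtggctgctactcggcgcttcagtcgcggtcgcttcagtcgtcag

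Of 22 chemokines, cytokines and their receptors, 10 were higher at day 13 and 4 at day 7 (median −0.44, or −0.73 without day 7 replicate 2 and 0.24 with the second batch as day 13). The alarmin Il1a was at 3.65 ± 2.06 against 36 ± 7.78 CPM, Il18 at 6.78 ± 2.62 against 42.8 ± 7.18 CPM, and the chemokines Ccl20 and Cxcl5 at 12.6 ± 3.32 against 71.2 ± 10.5 CPM and at 71.3 ± 23.1 against 267 ± 79.3 CPM. Il1rn, the antagonist of the interleukin 1 receptor, moved in the opposite direction to Il1a. It was at 1154, 916 and 917 CPM at day 7 and at 440, 355, 426, 243 and 297 CPM at day 13 (log2 fold change 1.498 with an SE of 0.171, and edgeR adjusted p = 4.44e-08).

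The study's other conditions place these levels in context. S100a7a averaged 178 CPM at day 7 and between 5.19 and 20.4 CPM in the 5 other conditions, which were 2D culture, Matrigel organoids, both batches of KC collagen organoids of day 13, and collagen organoids of KPC cells. Pmepa1 was at 428 ± 37.9 CPM at day 7, 152 ± 8.72 CPM in 2D culture (n = 6), 213 ± 7.78 CPM in Matrigel (n = 3), 114 ± 6.72 CPM in the second batch of day 13 (n = 3) and 201 ± 1.44 CPM in KPC organoids (n = 3). Clca1, at 220 ± 50.7 CPM at day 7, was at 533 ± 49.3 CPM in 2D culture, 3494 ± 372 CPM in Matrigel, 3239 ± 229 CPM in the second batch and 1293 ± 212 CPM in KPC organoids. Of the 12 genes with the largest changes toward day 7, 11 had their highest mean of the 6 conditions at day 7, and all 12 with the largest changes toward day 13 had their lowest mean there. These means share the day 7 libraries with the comparison above and add no test to it.

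**Figure D4:**
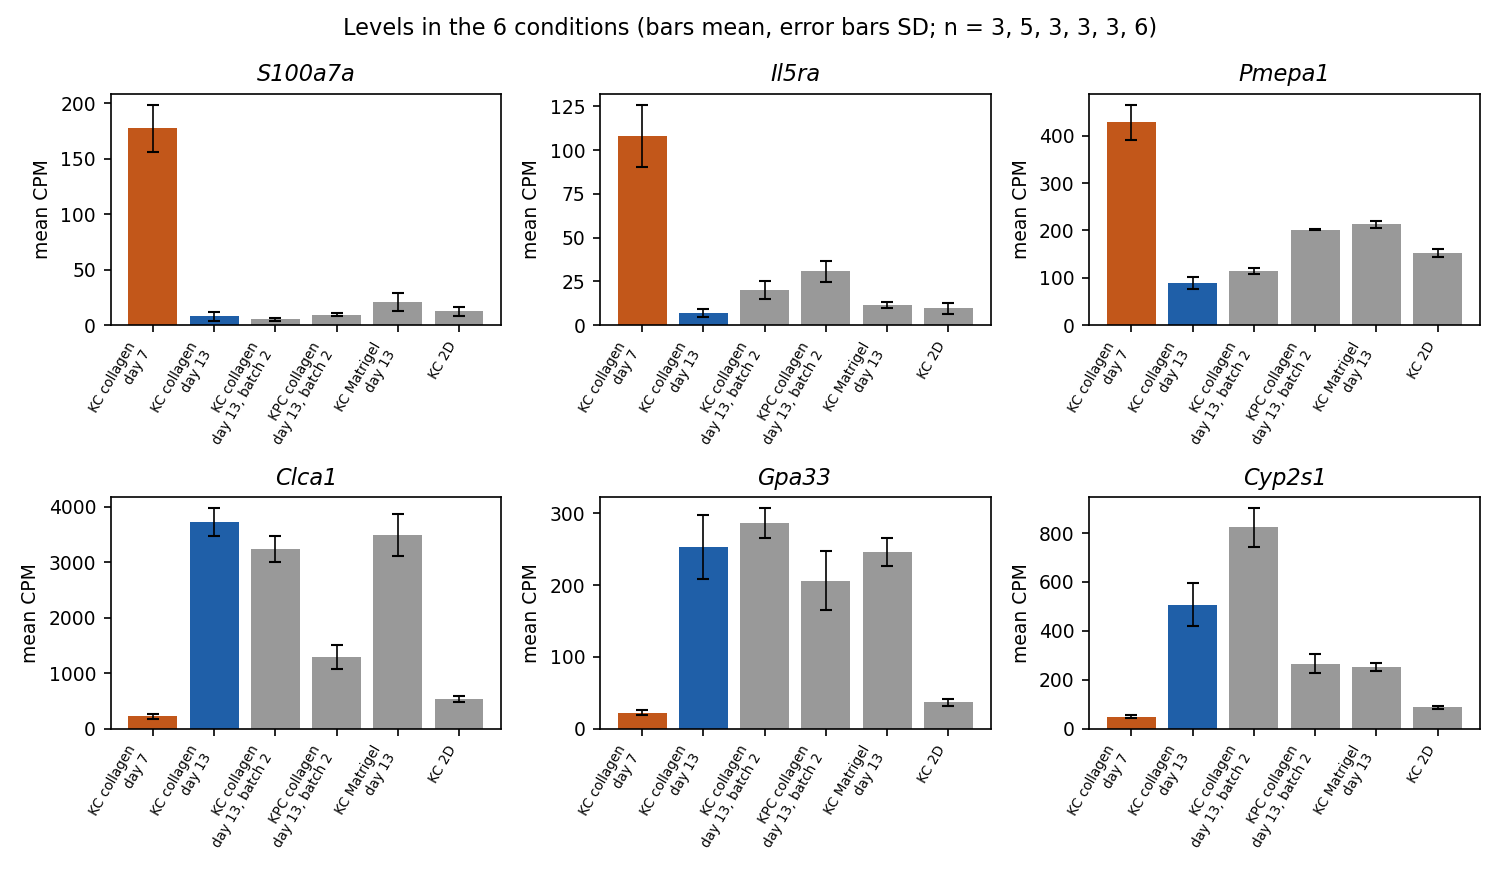
Mean CPM of S100a7a, Il5ra, Pmepa1, Clca1, Gpa33 and Cyp2s1 in the 6 conditions, with error bars of 1 SD over 3, 5, 3, 3, 3 and 6 libraries from left to right. Day 7 organoids have the highest bar for S100a7a (178), Il5ra (108) and Pmepa1 (428) and the lowest for Clca1 (220), Gpa33 (21.9) and Cyp2s1 (48.2).

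The day 13 libraries were not uniform for every gene. The 6 genes whose variance among them was largest compared with genes of the same level were Cyp2c55, Ces2a, Rpl30, S100g, Dsg2 and Slc7a11. Ces2a, a carboxylesterase, was at 31.5, 50.4 and 33.5 CPM in day 13 replicates 1 to 3 and at 217 and 210 CPM in replicates 4 and 5. Cyp2c55 was at 38.5, 31.2 and 25.4 CPM and at 247 and 189 CPM, and the desmoglein Dsg2 at 39.4, 33.6 and 35.4 CPM and at 102 and 116 CPM. The cystine transporter Slc7a11 was at 10.7, 8.15 and 9.57 CPM and at 33.6 and 34.7 CPM, against 52.5, 54.6 and 71.6 CPM at day 7. In each of these 4 genes replicates 4 and 5 were above the other 3. Without them the log2 fold changes were −2.60 for Cyp2c55 (−4.34 with them), −2.39 for Ces2a (−3.88), −0.87 for Dsg2 (−1.71) and 2.65 for Slc7a11 (1.63), and all 4 calls held. With the second batch as day 13, the calls of Cyp2c55 (−1.53, adjusted p = 0.271 from edgeR) and Slc7a11 (0.06) were lost. The calcium-binding protein S100g varied as well, from 34.9 to 160 CPM at day 13 (log2 fold change −3.29, or −2.60 without replicates 4 and 5). The ribosomal protein gene Rpl30 was at 287, 816, 364, 250 and 210 CPM at day 13 and at 548, 514 and 598 CPM at day 7. Its difference did not pass the test (log2 fold change 0.52, adjusted p = 0.211 from edgeR), and without day 13 replicate 2 it did (0.99, adjusted p = 0.000369 from edgeR). Without replicates 4 and 5 the log2 fold change of Rpl30 was 0.18.

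**Figure D5:**
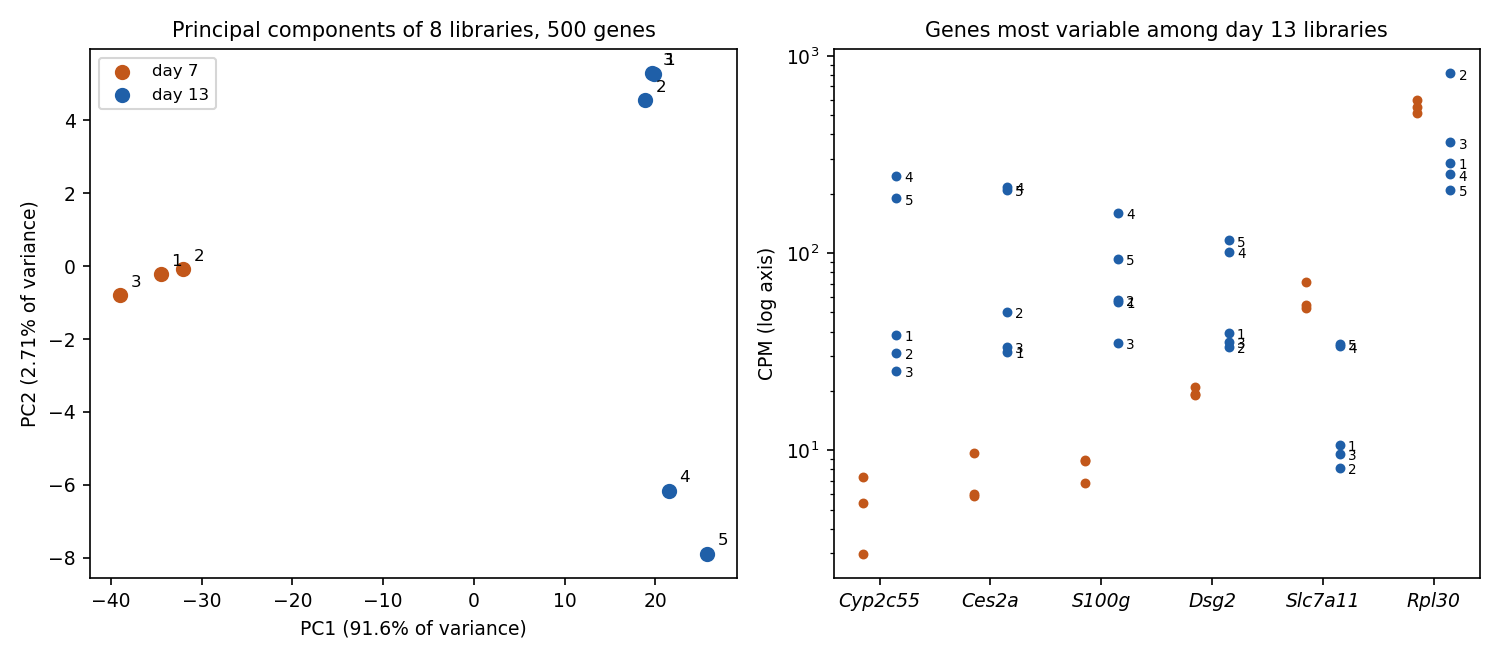
Left, the first principal components of the 8 libraries over 500 genes, with replicate numbers, where the first component (91.6% of the variance) separates the days and the second (2.71%) places day 13 replicates 4 and 5 below the other 3. Right, CPM on a log axis of the 6 genes most variable among the day 13 libraries, with day 7 libraries in orange and day 13 libraries in blue with their replicate numbers.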

How the data were processed

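Bulk RNA of 23 libraries was measured by 3'-end sequencing with molecular identifiers. The authors made the deposited count table with the Drop-seq pipeline 1.0, GRCm38 and GENCODE M25, and its values are counts of molecules per gene, not normalized. Whether counting used strand is not given in the sources used here.

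Groups were taken from the labels. One edgeR 4.0.16 quasi-likelihood fit (R 4.3.3, robust, TMM) held all 23 libraries in 6 conditions, with 11144 of 27207 genes kept by filterByExpr, and the contrast was day 7 over day 13 of the first batch. Genes with a Benjamini-Hochberg adjusted p under 0.1 were called. On simulated data, 70% of 100 genes changed by a log2 fold change of 1 and 14% of 100 changed by 0.5 were recovered among 11144 genes, and 8.70% of calls were false. Far fewer genes were changed in the simulation than the 6097 called here, which alters the adjustment of p. These shares therefore do not measure the sensitivity of this comparison. Library shares were compared by an exact permutation test. Levels were computed as CPM over tested genes with TMM factors, and positions come from GENCODE M21 on GRCm38. Alternatives included DESeq2 1.42.0, other scalings and filters, and left-out libraries.

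Named genes were the 6 given markers, the 12 largest fold changes in each direction among called genes of at least 30 CPM without overlap, the 6 largest CPM differences in each direction, the 6 most variable genes at day 13, and list members by role or size of change. The members and gene lists were chosen with earlier results of these data known. Some items are not reported here.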

Additional observations from a re-analysis of the deposited data

Results flagged for a closer look

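Among 176 values tested over the 5 day 13 libraries (171 genes and 5 library measures), 8 had a library far from the other 4 by Dixon's ratio, which is the gap to the nearest library over the whole range on the log2 CPM scale, with a critical value of 0.71. That is 4.55%, and chance flags about 1 in 20 groups, which is also near the 5.06% found over all tested genes. In replicate 5 the level was high for Car9 (ratio 0.939) and Acadm (0.74). In replicate 4 it was low for Xbp1 (0.871) and Slc44a4 (0.829). In replicate 2 it was low for Myo1a (0.79) and Pigr (0.714), in replicate 3 for Il1a (0.815) and in replicate 1 for Samd9l (0.809). Each of these 8 genes kept its call and direction without the library in question.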

How the results depend on the processing

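The counts of called genes stayed within 1.5 times the reported ones under all 21 alternatives, with 4201 to 6775 genes called in all, 2149 to 3472 higher at day 7 and 2052 to 3383 higher at day 13. With 1 library left out, the ranges were 5340 to 5906, 2672 to 2988 and 2660 to 2918. Leaving out day 13 replicates 4 and 5 gave 5568 called genes and leaving out replicates 1 to 3 gave 5227, both chosen after seeing the data. Of 166 called genes named in the text, 149 kept their call and direction under every alternative. The most calls in the opposite direction, 133, came with the second batch as day 13, where 6727 genes were called, 4678 of them also called in the first batch, while batch and culture cannot be told apart there. In that setting the direction turned for Myc (0.72), S100a6 (−0.16), Itga2 (−0.18), Itgb1 (−0.27) and Hnf4a (0.21), and Myc also turned with both batches together (0.057). The cause was not tested. With at least 10 counts required in every library, fewer genes were tested (7050) and the number called moved the most, to 4201, with 4079 of them among those reported.

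Same-numbered libraries of the days did not deviate together from the means of their days (correlations of 0.04, −0.02 and −0.02). These values give no sign of a pairing by replicate number but are too few to exclude a weak one. A replicate block over the 17 libraries of the first batch called 5661 genes, against 5842 without the block. Depth limits genes near the limit of detection, where 85 genes had at most 3 counts in every day 7 library and more in every day 13 library.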
